A study of Mus musculus with 22 samples.

Results

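Embryonic germ (EG) lines that began in serum and were then switched to 2i medium were compared with EG lines kept in serum. The comparison took every array of these groups by its label: 4 EG 2is arrays and 4 EG FCS arrays, 8 of the 22 arrays and 2 of the 5 groups of the series. EG 2is lines came from germ cells of embryonic day 8.5 mouse embryos, spent their first 48 hours in fetal calf serum (FCS), and were cultured from then on in N2B27 medium with PD0325901, CHIR99021 and leukaemia inhibitory factor (LIF) on laminin; lines 1 and 2 were labelled male and lines 3 and 4 female. EG FCS lines came from embryos of the same day and stayed in DMEM-F12 with FCS and LIF on a layer of mouse embryonic fibroblast feeders; line 1 was labelled female and lines 2, 3 and 4 male. The strain label of both groups was 129SvEv x Oct4-delta-PE-GFP transgenic, a mixed background, so both carried the reporter transgene, and both received LIF. Medium, inhibitors, serum and feeder layer changed together and cannot be told apart. Used beside them, under the same strain label, were 4 EG lines derived in 2i from the start, also from embryos of embryonic day 8.5, and 10 ES arrays, 5 in 2i and 5 in FCS. The cell type label of every sample, ES arrays included, reads EGCs, and ES arrays were told from EG arrays by their titles and source names. The labels do not say whether replicates were separate cultures, so the p-values given here reflect how far these samples spread, which may be technical.

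EG cells are pluripotent lines that arise in culture from primordial germ cells, the precursors of sperm and egg. 2i holds such cells in a naive state by blocking MEK, the kinase that activates ERK, and GSK3, the kinase that marks beta-catenin for breakdown, whereas serum with LIF allows ERK signalling and a mixture of naive and more advanced cells. In germ cell and stem cell lines 2i is known for low levels of the de novo DNA methyltransferases and for the activity of germline genes that DNA methylation keeps silent.

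All values are log2 RMA expression levels, so a difference of 1 is 2-fold. Pearson correlations over all probe sets were 0.984 to 0.995 between arrays of 1 group and 0.964 to 0.978 between EG 2is and EG FCS arrays, and 0 pairs were identical. The Y-linked gene Eif2s3y reached at most 4.88 in any female line, which serves here as the level of background. Both groups expressed pluripotency genes: 10 of 10 such markers were at 7 or more in all lines of both groups. These genes do not tell EG from ES cells, since Pou5f1 had means of 11.57 in ES 2i and 11.62 in ES FCS arrays. Of the feeder fibroblast, primitive endoderm and trophoblast markers, 0 of 27, 0 of 10 and 0 of 10 were at 7 or more in all lines. Some passed 7 in single EG FCS lines, where the feeder marker Bgn was at 6.73 to 8.54 and the endoderm marker Lrp2 at 6.69 to 8.14. The feeder markers differed between the groups. Their mean level was 5.06 to 5.18 in EG 2is lines and 5.34 to 5.88 in EG FCS lines, 14 of 27 fell and 0 rose, beside 12.9% and 12.7% of all genes tested, and Dcn, Lum, Fap, Meox1 and Osr1 were below background in both groups. In such bulk samples fewer cells of a type and less RNA per cell cannot be told apart.

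Change between EG 2is and EG FCS lines was broad. A gene was called at an adjusted p under 0.05 in a limma fit over all 22 arrays with terms for group, labelled batch and labelled sex. EG 2is lines differed from EG FCS lines at 5108 of 19938 genes (25.6%), with 2542 rises (12.7%) and 2566 falls (12.9%). All counts of called list members below stand beside these shares over all genes. The median difference of all genes was −0.011, and the median size of a called difference was 0.48. At least 2-fold were 721 called genes (3.62%), 410 higher and 311 lower. Rises and falls were about as many at 4-fold, with 53 and 49 genes, but at 8-fold there were 3 rises and 17 falls, 3 of these falls in genes below background in every EG 2is line. Groups did not overlap in any array for 4886 genes (24.5%), and for 4096 of the called ones. The fitted differences carry the sex term and can therefore depart a little from the difference of the group means.

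The largest rises among genes whose groups did not overlap were led by Crxos, Aqp3 and Ppp1r14d. Crxos, a homeobox gene, was at 8.55, 8.78, 8.38 and 8.62 in EG 2is lines 1 to 4, against 4.75, 4.78, 5.39 and 5.24 in EG FCS lines 1 to 4. Its levels in EG FCS lines 1 and 2 lay below background, and it rose by 3.65 (SE 0.32, 12.5-fold, adjusted p = 1.5e-07). Aqp3, a water and glycerol channel, was at 9.88 to 10.76 in EG 2is lines and 6.43 to 7.42 in EG FCS lines, a rise of 3.21 (SE 0.38, 9.23-fold). Ppp1r14d, an inhibitor of protein phosphatase, rose by 3.03 (SE 0.29, 8.17-fold). These were the 3 rises of at least 8-fold. Close behind them came Aldh1l1, which oxidises formyl tetrahydrofolate (2.91), Acss1, the mitochondrial acetyl-CoA synthetase (2.78), Elovl7, an elongase of fatty acids (2.78), Plekhb2, a membrane-binding protein (2.68), and Spic and Elf3, both ETS-family transcription factors (2.57 and 2.53). Fetub, a secreted protease inhibitor, rose by 2.55.

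The largest falls, chosen in the same way, were led by Acta2, Thbs1 and Dnmt3l. Acta2, smooth muscle actin, was at 4.82, 5.23, 4.79 and 5.20 in EG 2is lines 1 to 4, against 9.32, 8.59, 9.80 and 10.38 in EG FCS lines 1 to 4. It was below background in EG 2is lines 1 and 3 and fell by 4.52 (SE 0.30, 23-fold, adjusted p = 3.7e-09). Thbs1, a matrix glycoprotein, was at 5.17 to 5.41 in EG 2is lines and 8.47 to 10.46 in EG FCS lines, and fell by 4.37 (SE 0.35). EG FCS line 2 was the lowest and line 4 the highest for Acta2 and Thbs1, and also for the mean of the feeder markers (5.34 in line 2 and 5.88 in line 4). The part of feeder RNA in these falls was not tested. Enpp3, an ectonucleotidase, fell by 4.07 (SE 0.27, 16.8-fold), and Slc7a7, a subunit of a cationic amino acid transporter, fell by 3.57 (SE 0.20, 11.9-fold). Esrp1, a splicing regulator of epithelial cells, was at 4.95 to 5.37 in EG 2is lines and 8.13 to 8.85 in EG FCS lines, and fell by 3.32 (SE 0.17, adjusted p = 5e-10). Dnmt3l, Gja1, Peg10, Fos, Fosb, Dusp6 and Gadd45g were also among the 12 largest falls and are described with their groups.

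**Figure D1:**
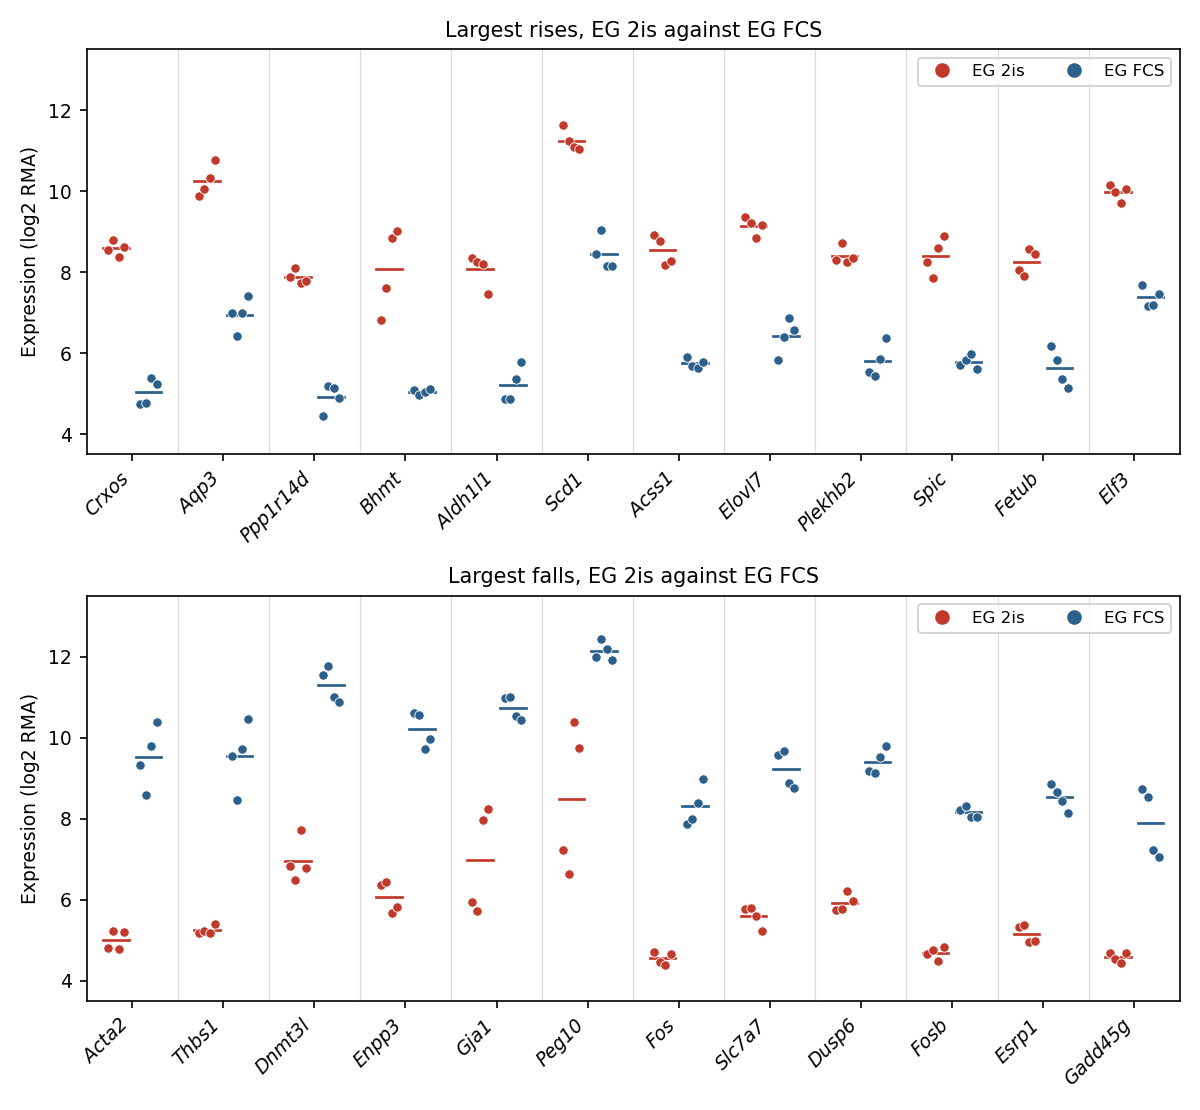
Expression in log2 RMA units (vertical axes) of the 12 largest rises (upper panel) and the 12 largest falls (lower panel). Each point is 1 line, in the order 1 to 4 within a group, EG 2is lines left of EG FCS lines, and bars are means of 4 lines; the rule that chose these genes required groups that do not overlap, Fos, Fosb and Gadd45g are below background in every EG 2is line, and Gja1 and Peg10 spread widely among EG 2is lines.

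Most genes that ERK switches on fell. Of 32 ERK feedback and immediate early genes, 22 fell and 0 rose, with a median difference of −0.94 beside −0.011 over all genes. Among the transcription factors, Fos was at 4.72, 4.46, 4.38 and 4.67 in EG 2is lines and 7.86, 8.0, 8.38 and 8.97 in EG FCS lines. Every EG 2is line was below background, so the fall has only a bound: Fos was at least 10.7-fold lower in EG 2is lines (adjusted p = 1.2e-07), where such a bound sets the EG FCS mean against the background level of 4.88. Its relative Fosb and the factor Egr1, also below background in every EG 2is line, were at least 9.68-fold and 4.1-fold lower. Jun fell by 2.04 (SE 0.23). Among the feedback inhibitors, Dusp6, a phosphatase that inactivates ERK, was at 5.75 to 6.22 in EG 2is lines and 9.12 to 9.79 in EG FCS lines, and fell by 3.5 (SE 0.20, 11.3-fold, adjusted p = 8.8e-10). Dusp4, another such phosphatase, fell by 2.64, and Spry4, an inhibitor of receptor signalling, fell by 2.92. The factors did not all follow: Etv4 fell by 2.13, while its close relative Etv5 was at 10.06 to 10.33 in EG 2is lines and 9.95 to 10.41 in EG FCS lines, a difference of 0.04 (SE 0.11, adjusted p = 0.828). Upstream of the pathway, 7 of 20 genes of fibroblast growth factors and their receptors fell and 0 rose. Fgf17 fell by 1.89 (SE 0.21) and the receptor Fgfr2 fell by 1.45 (SE 0.19).

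Other signalling lists held calls in both directions, as did all genes tested, with 12.7% rises and 12.9% falls. Of 21 Wnt target genes 5 rose and 4 fell (median 0.05). Axin2, the negative feedback gene of the pathway, rose by 1.23 (SE 0.28), and Notum, an enzyme that inactivates Wnt ligands, by 2.07 (SE 0.26). Lef1, a transcription factor of the same pathway, fell by 1.81 (SE 0.33), and the Wnt receptor Fzd7 fell by 1.87 (SE 0.22). Of 25 Nodal and TGF-beta genes 4 rose and 5 fell. Those that rose were the ligand-processing proteases Pcsk6 (1.16) and Furin (0.76), the receptor Acvr1b (1.02) and the effector Smad3 (0.90), and those that fell included the antagonist Lefty1 (−2.61, SE 0.71) and Skil, a repressor of SMAD proteins (−1.41). In male arrays alone 2 of these genes fell. Nodal itself was at 9.14 to 9.30 in EG 2is lines and 8.99 to 9.26 in EG FCS lines, a difference of 0.05 (adjusted p = 0.793). Of 15 BMP and Id genes 4 fell and Smad1 rose, a rise not called without EG 2is line 2 or 4 or EG FCS line 1, the falls being Id1, Id2 and Id3, inhibitors of helix-loop-helix factors, and Bambi, a decoy receptor. Id2 was at 6.71 to 7.13 in EG 2is lines and 8.87 to 8.97 in EG FCS lines, and fell by 1.96 (SE 0.25). Of 18 LIF and STAT3 genes 3 rose (6 with the replicate number as a block) and 7 fell, Fos and Myc among the falls. The feedback inhibitor Socs3 fell by 1.17 (SE 0.20), whereas Stat3 differed by 0.02 (SE 0.13, adjusted p = 0.951).

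Lipid genes were called higher far more often than lower. Of 26 genes of fatty acid synthesis and oxidation 17 rose and 1 fell (median 0.49). Scd1, which makes monounsaturated fatty acids, was at 11.62, 11.23, 11.09 and 11.05 in EG 2is lines, against 8.45, 9.03, 8.16 and 8.14 in EG FCS lines. The groups lay more than 2 log2 units apart, and the rise was 2.84 (SE 0.16, 7.14-fold, adjusted p = 5.7e-10). The desaturases Fads1 and Fads2 rose by 1.62 (SE 0.11) and 1.45 (SE 0.15), Scd2 by 1.33 (SE 0.10), and the regulator Srebf1 by 0.97 (SE 0.10). Synthesis genes further upstream rose less, with Fasn, the fatty acid synthase, at 0.52 and Acly, which supplies acetyl-CoA from citrate, at 0.48. Oxidation was represented too: Cpt1a, which admits fatty acids to mitochondria, was at 9.37 to 10.47 in EG 2is lines, against a broad 7.30 to 8.86 in EG FCS lines, and rose by 1.80 (SE 0.25). Acadl, a dehydrogenase of fatty acid oxidation, fell by 0.50 (SE 0.15), a call lost without EG 2is line 3 or 4 or EG FCS line 1.

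Of 20 genes of cholesterol synthesis and uptake 11 rose and 0 fell (median 0.43). Tm7sf2, a sterol reductase, was at 8.21, 8.08, 7.62 and 7.29 in EG 2is lines 1 to 4, against 6.29, 6.65, 7.06 and 6.97 in EG FCS lines 1 to 4, and rose by 1.18 (SE 0.18, 2.27-fold). It was the only member to rise at least 2-fold. Msmo1, a sterol oxidase, rose by 0.84 (SE 0.14) and Fdft1, squalene synthase, by 0.54 (SE 0.08). The mean level of the list was higher in the male EG 2is lines 1 and 2 (9.03 and 8.91) than in the female lines 3 and 4 (8.73 and 8.61), and was 8.40 to 8.61 in EG FCS lines, so the lowest EG 2is line met the highest EG FCS line.

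Lysosome genes made up the list with the largest share of rises. Of 31 measured, 22 rose and 2 fell (median 0.51), and without any single EG 2is or EG FCS array the count of rises was 19 to 22. Its mean level was 8.81 to 8.85 in EG 2is lines, a narrow band, and 8.03 to 8.43 in EG FCS lines. Among the enzymes, Glb1, the beta-galactosidase that removes galactose from glycolipids, was at 9.84, 9.87, 8.95 and 9.39 in EG 2is lines and 7.96, 8.20, 8.24 and 8.36 in EG FCS lines. It rose by 1.39 (SE 0.13, 2.62-fold, adjusted p = 2.2e-07). Tpp1, a peptidase, was at 9.23 to 9.54 in EG 2is lines and 8.19 to 8.52 in EG FCS lines, a rise of 1.07 (SE 0.09). Hexa, a hexosaminidase, rose by 1.3, and the cathepsins Ctsb and Ctsd, proteases, by 1.13 and 0.65. Of the membrane proteins, Lamp2 rose by 1.52 (SE 0.15) and the calcium channel Mcoln1 by 0.62 (SE 0.11). Atp6v1a, a subunit of the pump that acidifies lysosomes, rose by 0.92, and Tfeb, the transcription factor that drives lysosome genes, by 0.51 (SE 0.14, adjusted p = 0.00851). The falls were Ctsh and Ctsz, both cathepsins (−0.68 and −0.52). Ctsz was at 9.59 and 9.29 in the male EG 2is lines 1 and 2 and at 8.27 and 8.76 in the female lines 3 and 4. In EG FCS lines 1 to 4 it was at 9.58, 9.36, 9.58 and 9.82, so the male EG 2is lines lay at or near the EG FCS range. Each array left out except EG 2is line 1 and EG FCS line 2 left at most 1 fall in the list.

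Promoters of the lysosome genes were searched for the CLEAR core, TCACGTGA, the letters at the centre of the element that Tfeb binds. Windows of 300 bases, 250 before to 50 after each start, were available for 19 of the 22 genes that rose, and 4 of them (21.1%) held the core on either strand. Of all 25 lysosome genes with a window 5 held it (20%), the other being Atp6v0d1, which did not rise, beside 1.35% of all 15614 windows. The core contains the E-box CACGTG, held by 8 of the 19 genes that rose (42.1%) and by 10 of all 25 (40.0%), beside 8.38% of all windows, so the genes that rose and all measured members had nearly the same shares. These counts were made after the values were seen, and a match of letters is a description, not a binding site. Stretches of 60 bases around the first match are shown for the 4 genes, with the core in capitals, read 5′ to 3′ on the strand of the gene, from RefSeq on build GRCm38.p6. Atp6v1a lies at chr16:44139358-44139417 on the minus strand, Ctsd at chr7:142387893-142387952 on the minus strand, Mcoln1 at chr8:3500447-3500506 on the plus strand and Gla, the alpha-galactosidase, at chrX:134601196-134601255 on the minus strand.
Atp6v1a: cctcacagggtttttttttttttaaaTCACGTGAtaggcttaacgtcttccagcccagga
Ctsd: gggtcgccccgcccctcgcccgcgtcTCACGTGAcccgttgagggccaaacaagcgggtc
Mcoln1: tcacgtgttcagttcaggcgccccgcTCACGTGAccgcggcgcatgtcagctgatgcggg
Gla: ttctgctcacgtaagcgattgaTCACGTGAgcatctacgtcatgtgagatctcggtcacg
The first base of the core lay 132 bases before the start in Atp6v1a, 99 in Ctsd, 46 in Mcoln1 and 228 in Gla, which held 2 matches. Gla rose by 0.49 (SE 0.14), the smallest difference of the 4.

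Genes of amino acid supply and of defence against oxidants rose in part. Of 32 genes of the amino acid stress response, which the factor ATF4 drives, 15 rose and 2 fell (median 0.41). Nupr1, a stress-induced chromatin protein, was at 8.57 to 8.75 in EG 2is lines and 6.11 to 6.43 in EG FCS lines, a rise of 2.34 (SE 0.17, 5.06-fold). Slc7a1, a transporter of arginine and lysine, rose by 1.85 (SE 0.14), and Asns, asparagine synthetase, by 1.29 (SE 0.14). The falls were in Atf3, a transcription factor that is also an immediate early gene (−1.37), and Slc38a2, a glutamine transporter (−1.14). Of 29 genes of the NRF2 response and glutathione 12 rose and 4 fell (median 0.20). Gss, glutathione synthetase, rose by 2.19 (SE 0.25, 4.57-fold), Nqo1, a quinone reductase, by 1.53 (SE 0.14), and Nfe2l2, which encodes NRF2 itself, by 0.63 (SE 0.06, adjusted p = 4e-07). The subunits of the enzyme of the preceding step of glutathione synthesis went the other way, Gclm (−0.50) and Gclc (−0.31). The falls in this list numbered 2 without EG 2is line 1 or 3 or EG FCS line 1 or 2, and 2 in male arrays alone.

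Among 25 enzymes of folate, betaine and glycine metabolism 11 rose and 3 fell, with a median of 0.04, and the falls numbered 1 without EG 2is line 4 or EG FCS line 1. Bhmt, which makes methionine from betaine, was at 6.82, 7.61, 8.83 and 9.01 in EG 2is lines 1 to 4 and 4.96 to 5.12 in EG FCS lines. It rose by 2.93 (SE 0.55, 7.64-fold, adjusted p = 0.00049), and the female lines 3 and 4 were above the male lines 1 and 2. Its chromosomal neighbour Bhmt2 and Dmgdh, the next enzyme of betaine breakdown, had the same order of sexes and rose by 1.91 (SE 0.36) and 2.46 (SE 0.46). Cdo1, which oxidises cysteine, was the other way round, with 8.86, 9.26, 8.05 and 7.82 in EG 2is lines, against 5.67, 5.73, 6.65 and 7.05 in EG FCS lines. It rose by 2.45 (SE 0.38). Gldc, of the glycine cleavage system, fell by 0.97 (SE 0.22), while Amt of the same system rose by 0.82 (SE 0.09).

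Many genes of ribosome production and of the Myc family were called lower, and none higher. Of 34 genes of ribosome biogenesis and the Myc family 22 fell and 0 rose (median −0.31), and without any single EG 2is or EG FCS array the count of falls was 19 to 22. Myc, which drives such genes, was at 5.28, 5.41, 5.73 and 5.09 in EG 2is lines, against 8.56, 8.58, 8.59 and 8.51 in EG FCS lines. The EG FCS lines were nearly level, and the gene fell by 3.19 (SE 0.18, 9.14-fold, adjusted p = 5.7e-10). Mycn fell by 1.38 (SE 0.17), and these were the 2 falls of at least 2-fold in the list. Odc1, the first enzyme of polyamine synthesis, fell by 0.96 (SE 0.14). The nucleolar proteins Nolc1, Ncl and Npm1 fell too (−0.65, −0.31 and −0.26). Mxd1 and Mnt, also in this list, were among the falls as well.

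Of 35 cell cycle genes 7 rose and 11 fell (median −0.06), beside 12.7% and 12.9% of all genes tested. Without EG FCS line 1 the falls numbered 7. Ccne1, cyclin E, was at 9.25 to 9.32 in EG 2is lines and 10.53 to 10.91 in EG FCS lines, and fell by 1.44 (SE 0.08, adjusted p = 6e-10), and Ccnd2, cyclin D2, fell by 1.83 (SE 0.19). Of the inhibitors of cyclin-dependent kinases, Cdkn1b rose by 0.98 (SE 0.13), Cdkn2a by 0.55, Cdkn2c by 0.39 and Cdkn2b by 0.26, while Cdkn1c, an imprinted gene, fell by 0.93. Of 29 glycolysis and hypoxia genes 2 rose and 10 fell, the falls numbering 5 without EG 2is line 2 or EG FCS line 1 and in male arrays alone. Pdk1, which holds back pyruvate dehydrogenase, fell by 2.59 (SE 0.24) and Egln3, an oxygen sensor, fell by 1.93 (SE 0.28), whereas Pfkp, a phosphofructokinase, rose by 1.69 (SE 0.16). Of 35 subunits of oxidative phosphorylation 7 rose and 1 fell (median 0.05). That count was 2 without EG FCS line 1, 3 without EG FCS line 2, 4 without EG 2is line 1 or 4, and 2 in male arrays alone.

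**Figure D2:**
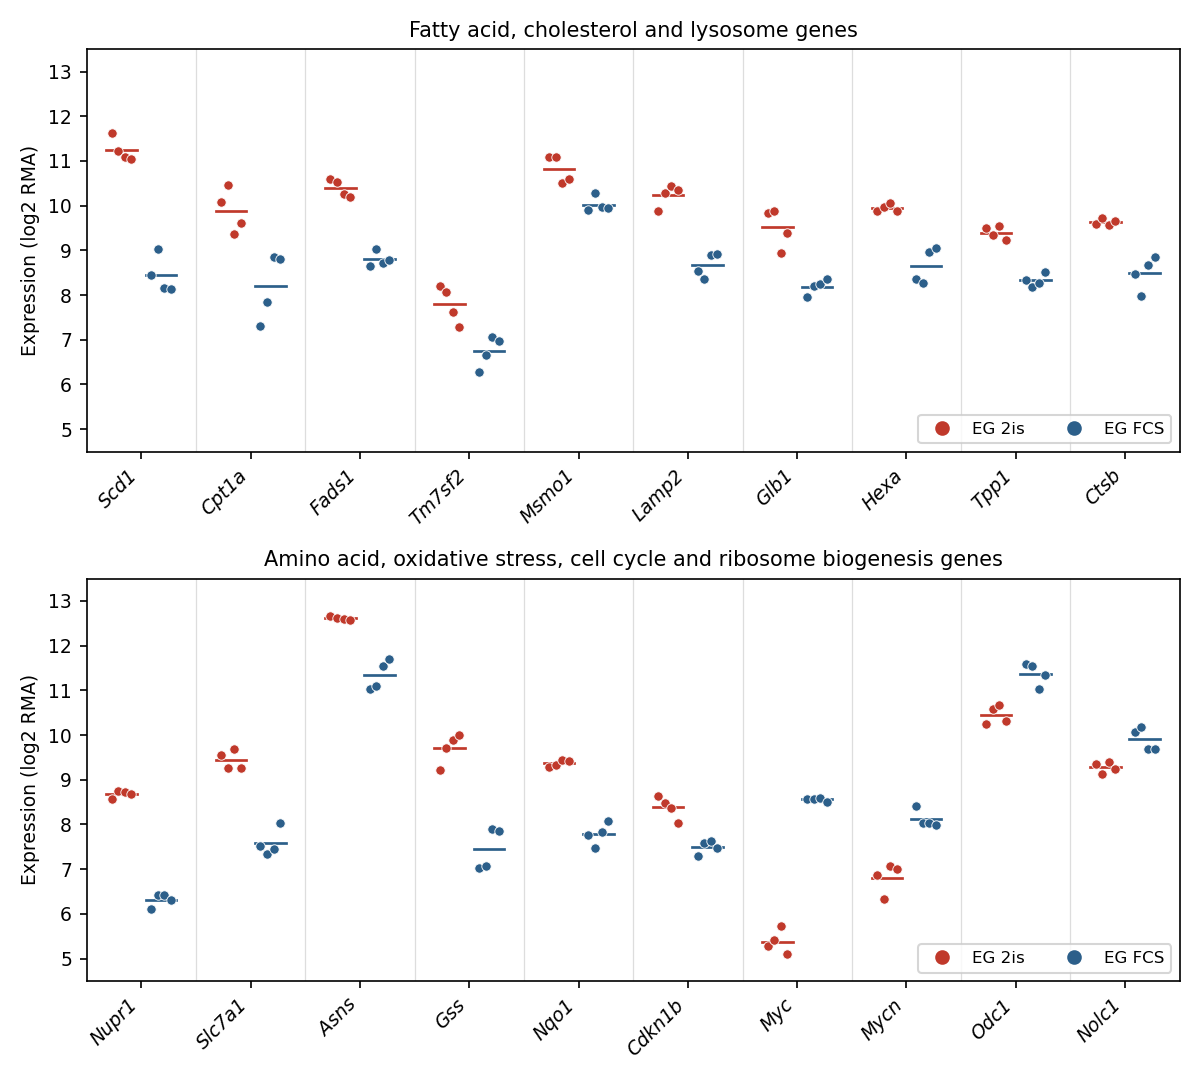
Expression in log2 RMA units (vertical axes) of lipid and lysosome genes (upper panel) and of amino acid, oxidative stress, cell cycle and ribosome biogenesis genes (lower panel). Each point is 1 line, EG 2is left of EG FCS, bars are means of 4 lines; all 10 genes of the upper panel are higher in EG 2is lines, and in the lower panel Myc, Mycn, Odc1 and Nolc1 are lower and the others higher.

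Contractile genes, which serum response factor (SRF) and YAP drive, were mostly called lower. Of 36 measured, 24 fell and 1 rose (median −0.70), and their mean level was 7.41 to 7.5 in EG 2is lines and 8.22 to 8.71 in EG FCS lines. Tpm1, a tropomyosin, was at 7.37, 7.43, 7.19 and 7.51 in EG 2is lines, against 9.30, 9.16, 9.55 and 9.49 in EG FCS lines. It fell by 1.99 (SE 0.11, 3.96-fold, adjusted p = 5.7e-10), and Tpm2 fell by 1.39 (SE 0.08). Srf itself fell by 1.62 (SE 0.12) and the secreted YAP target Ccn1 fell by 3.24 (SE 0.36). Cnn2, a calponin, fell by 3.03 (SE 0.22), and Myl9, a myosin light chain, fell by 2.47 (SE 0.22). Lima1, an actin-binding protein, rose by 0.88 (SE 0.12). Cnn2 was at 9.67 to 10.01 in EG FCS lines and did not follow the order of the feeder markers there. Tagln, another actin-binding protein, was below background in every EG 2is line and at least 3.84-fold lower in EG 2is lines. It was at 7.07, 5.99, 6.79 and 7.43 in EG FCS lines 1 to 4. Like the feeder mean, Tagln was lowest in line 2 and highest in line 4, but lines 1 and 3 were in the reverse order. The part of feeder RNA in the fall of these genes was not tested.

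The CArG box, the element that SRF binds, was searched by its name on both strands in windows of the same 300 bases. It was found in 5 of 19 contractile genes that fell and had a window (26.3%). Of all 30 contractile genes with a window 7 held it (23.3%), the other 2 being Lima1, which rose, and Fhl2, beside 1.42% of all windows. This search too was made after the values were seen. Stretches of 60 bases around the first match are shown for the 5 genes that fell, with only that match in capitals. Source and reading direction are the same as above. Cnn2 lies at chr10:79988519-79988578 on the plus strand, Myl9 at chr2:156775278-156775337 on the plus strand, Srf at chr17:46556210-46556269 on the minus strand, Vcl, which encodes the adhesion protein vinculin, at chr14:20929148-20929207 on the plus strand and Acta1, skeletal muscle actin, at chr8:123894814-123894873 on the minus strand.
Cnn2: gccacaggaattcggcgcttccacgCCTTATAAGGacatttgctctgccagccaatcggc
Myl9: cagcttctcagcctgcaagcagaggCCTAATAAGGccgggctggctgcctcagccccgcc
Srf: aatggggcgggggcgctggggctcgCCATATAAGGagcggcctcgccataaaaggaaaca
Vcl: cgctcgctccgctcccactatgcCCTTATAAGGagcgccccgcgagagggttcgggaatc
Acta1: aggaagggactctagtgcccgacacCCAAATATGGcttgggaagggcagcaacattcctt
Srf held 2 matches, the second in small letters within the stretch shown, and the others 1. Differences were smaller in Vcl (−0.84, SE 0.10) and Acta1 (−0.72, SE 0.24) than in the other 3.

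Adhesion and matrix genes were mixed, beside 12.7% rises and 12.9% falls over all genes. Of 36 genes of the basement membrane and of matrix enzymes 14 fell and 3 rose (median −0.20). Lamb1, a laminin chain, was at 6.87, 6.57, 6.47 and 5.94 in EG 2is lines and 9.29, 8.94, 8.87 and 9.58 in EG FCS lines, and fell by 2.59 (SE 0.23). Col18a1, a basement membrane collagen, fell by 1.79 (SE 0.13), with EG FCS lines between 8.15 and 8.40. Nid1, which links laminin to collagen, and Fn1, fibronectin, rose by 1.75 (SE 0.24) and 0.60 (SE 0.12). The third rise was Lama3, and the rises numbered 7 without EG FCS line 4 and 5 without EG 2is line 4 and in male arrays alone. Bgn, a matrix proteoglycan counted among the feeder markers, was at 5.04 to 5.29 in EG 2is lines, against 7.55, 6.73, 7.84 and 8.54 in EG FCS lines 1 to 4, and Col1a1 fell by 1.61 (SE 0.22); the part of feeder RNA in the matrix falls was not tested either. Of 30 epithelial genes 10 fell and 3 rose, but 7 fell and 6 rose in male arrays alone and also with sex terms per culture. Epcam was at −1.37 (SE 0.14) and Cldn6, a tight junction protein, at −2.05 (SE 0.31), whereas the desmosomal cadherin Dsg2 rose by 1.97 (SE 0.16). Cdh1, E-cadherin, differed by 0.20 (SE 0.10, adjusted p = 0.143). Of 29 integrins and surface adhesion proteins 9 rose and 6 fell, with Pecam1 higher by 1.14 (SE 0.13) and Itga9 at −1.01 (SE 0.12).

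Pluripotency factors did not move as a block. Of 18 naive factors 8 rose and 1 fell (median 0.29), and the rises numbered 3 without EG FCS line 1 and 4 in male arrays alone. Prdm14, a repressor of FGF receptor and methyltransferase genes, was at 8.81, 8.65, 9.20 and 9.42 in EG 2is lines, against 6.27, 6.42, 6.88 and 7.07 in EG FCS lines, and rose by 2.23 (SE 0.23, 4.68-fold). Klf2 was the one that fell, by 0.58 (SE 0.09). Tfcp2l1 was level among EG 2is lines at 11.61 to 11.84, while EG FCS lines 1 to 4 were at 8.97, 9.43, 10.84 and 11.02. It rose by 1.69 (SE 0.36), and EG FCS lines 3 and 4 lay much nearer to the EG 2is lines than lines 1 and 2 did. Nanog was at 12.33 to 12.55 in EG 2is lines, against 11.35, 11.40, 12.13 and 12.16 in EG FCS lines 1 to 4, a rise of 0.66 (SE 0.17, adjusted p = 0.00599) that was not called without EG FCS line 1 (adjusted p = 0.0545) or in male arrays alone (adjusted p = 0.106). Esrrb overlapped between the groups, with 9.90 to 10.08 in EG 2is lines and 9.35, 9.44, 9.95 and 10.03 in EG FCS lines. Its difference of 0.35 (adjusted p = 0.0321) was not called without EG 2is line 1, 2 or 4 or EG FCS line 1 or 2. Pou5f1 and Sox2 differed by −0.09 (SE 0.06, adjusted p = 0.369) and 0.03 (SE 0.08, adjusted p = 0.820).

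Of 17 core pluripotency and chromatin genes 10 fell (6 in male arrays alone) and 1 rose (median −0.43). Lin28a, which blocks maturation of let-7 microRNAs, was at 6.30, 6.22, 6.37 and 5.69 in EG 2is lines, against 9.56, 9.62, 9.15 and 9.06 in EG FCS lines. It fell by 3.16 (SE 0.27), its paralogue Lin28b fell by 1.82 (SE 0.18), and the chromatin protein Utf1 fell by 2.71 (SE 0.15). Among 20 primed epiblast genes 9 fell and 2 rose (median −0.42; 1 rose without EG 2is line 1 or EG FCS line 3 or 4), with the factors Sox11 at −1.80 (SE 0.18) and Sox4 at −1.51 (SE 0.15). Otx2 differed by −1.0 (SE 0.37, adjusted p = 0.0525), with EG 2is lines at 6.34, 5.26, 6.94 and 6.72 and EG FCS lines at 7.61, 7.77, 6.71 and 6.54.

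Lists of other lineages are given beside the 12.9% of falls and 12.7% of rises over all genes. Of 23 primitive endoderm genes 10 fell and 0 rose. Among the endoderm markers the transcription factor Gata6 fell by 0.55, while the factors Gata4, Sox17, Sox7, Foxa2 and Hnf4a were not called. Their differences were −0.22, −0.11, −0.16, −0.02 and 0.02, so the falls did not extend to most of these factors. Lrp2, an endocytic receptor, was at 5.44 to 5.80 in EG 2is lines, against 7.74, 7.63, 6.69 and 8.14 in EG FCS lines 1 to 4, and Cubn, its partner, was at 4.44 to 5.04 in EG 2is lines, against 6.57, 6.70, 5.43 and 8.21 in EG FCS lines. EG FCS line 4 was the highest and line 3 the lowest for both, and line 4 was also the highest in feeder markers, whose part was not tested. Of 17 trophoblast genes 3 fell and 0 rose, but 5 fell in male arrays alone. With the replicate number as a block 5 fell and 3 rose. The 3 falls were Peg10, Krt18 and Bmp4, which are also in the imprinted, epithelial and Wnt target lists. Of the 10 trophoblast markers 0 rose and 0 fell. Of 25 primitive streak genes 3 rose and 2 fell, and of 25 neural genes 1 rose and 5 fell, with the neuronal factor Neurod1 at −1.51 (SE 0.22). Of 20 genes listed for the 2-cell stage 7 were measured, and 3 of these were below background in both groups. Of the 7, 1 rose, Zfp809 (0.91), a silencer of retroviruses, and 1 fell, Eif1a (−0.34), a translation initiation factor. So few genes do not describe that stage. Of 11 housekeeping genes 1 fell, Actb (−0.29, SE 0.05), a gene that is also in the contractile list.

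**Figure D3:**
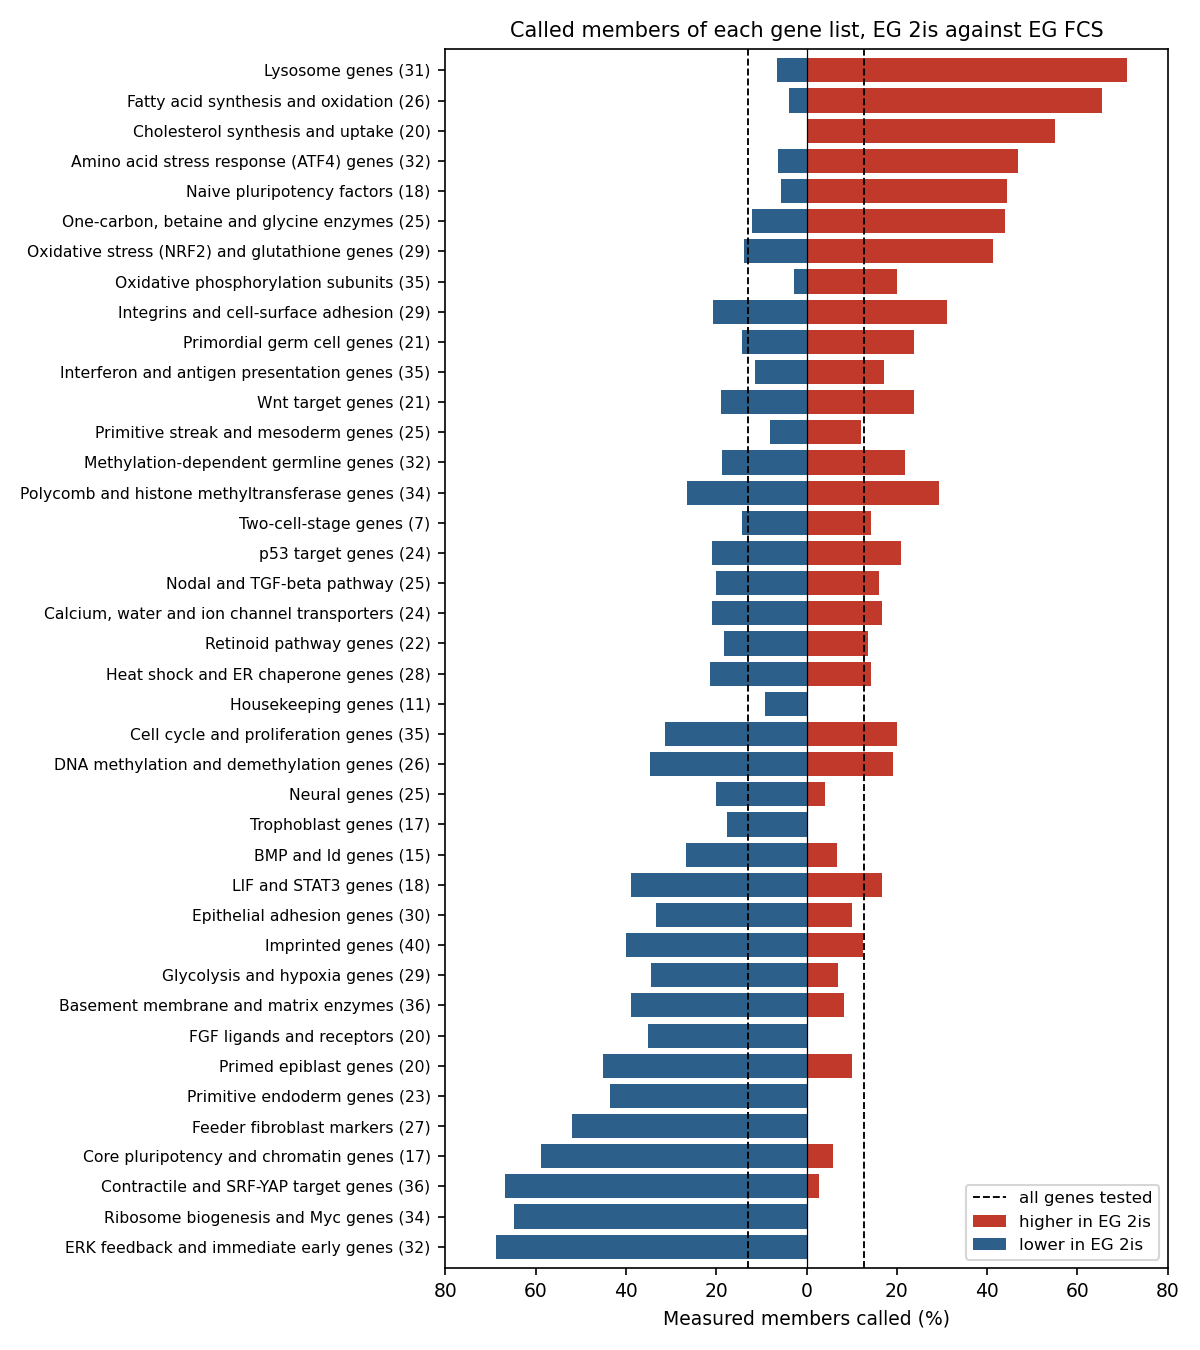
Share of the measured members of each of 40 gene lists (number in brackets) that was called higher (right) or lower (left) in EG 2is than in EG FCS lines, in percent on the horizontal axis. Dashed lines mark the shares over all genes, 12.7% higher and 12.9% lower; lysosome genes lie at the top with 22 rises of 31, ERK genes at the bottom with 22 falls of 32.

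DNA methylation genes changed in both directions. Of 26 measured, 9 fell and 5 rose (median −0.09), beside 12.9% and 12.7% of all genes tested. Dnmt3l, a catalytically inactive cofactor of the de novo methyltransferases, was at 6.83, 6.49, 7.72 and 6.79 in EG 2is lines, against 11.55, 11.76, 11.01 and 10.89 in EG FCS lines. It fell by 4.23 (SE 0.51, 18.8-fold). The de novo enzyme Dnmt3a was at 6.0 to 6.71 in EG 2is lines, against 8.76, 8.80, 7.38 and 7.47 in EG FCS lines 1 to 4, and Dnmt3b was at 6.21 to 7.0, against 9.29, 9.24, 8.35 and 8.09. For both, EG FCS lines 1 and 2 were higher than lines 3 and 4, and no line reached the EG 2is range. Uhrf1, which brings the maintenance enzyme to newly copied DNA, was at 9.92 to 10.31 in EG 2is lines and 9.67 to 9.72 in EG FCS lines, and rose by 0.46 (SE 0.08). Dnmt1, that enzyme, overlapped between the groups and differed by 0.13 (SE 0.07, adjusted p = 0.215). Tet1, which oxidises methylated cytosine, fell by 0.67 (SE 0.11). Proteins that read methylated DNA were among the rises, Zbtb38 by 0.84, Mbd1 by 0.82 and Mbd4 by 0.54. Zfp57, which protects methylation at imprinted sites, rose by 0.49 (SE 0.11).

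Germline genes changed in both directions. Of 32 germline genes known to depend on DNA methylation 7 rose and 6 fell (median −0.04), beside 12.7% and 12.9% of all genes tested. Dazl, which binds messenger RNA in germ cells, was at 8.45, 9.34, 9.86 and 10.36 in EG 2is lines, against 6.98, 7.11, 7.0 and 7.03 in EG FCS lines. The EG FCS lines were level and the EG 2is lines spread over nearly 2 log2 units; the rise was 2.30 (SE 0.26, 4.94-fold, adjusted p = 2.7e-06). Other rises were those of Hormad1 and Syce1, proteins of meiotic chromosomes (0.79 and 0.92), Stk31, a germ cell kinase (0.83), and Tdrd9, a helicase of the piRNA pathway, which silences transposons (0.33, SE 0.09). Hormad1 overlapped between groups, since EG 2is line 1 was at 7.95 and EG FCS line 1 at 7.96. The falls included Mael (−2.22, SE 0.25), Ddx4 (−1.45, SE 0.25) and, near background, Tdrd1 (−0.26), which act in the same pathway. Among 21 genes of primordial germ cells 5 rose and 3 fell, beside the same shares over all genes. Kit, the receptor for stem cell factor, was at 10.36 to 10.81 in EG 2is lines, against 7.82, 8.18, 9.16 and 9.10 in EG FCS lines, a rise of 2.11 (SE 0.25), Alpl, alkaline phosphatase, rose by 1.3 (SE 0.16), and Prdm1, a repressor that directs germ cell fate, fell by 0.77 (SE 0.17).

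The promoter of Dazl is printed because this gene is held silent by methylation of CpG sites in other mouse cells. Dazl had the largest rise of the germline list and does not represent that list, whose median difference was −0.04. The RefSeq window at chr17:50293571-50293870 on the minus strand of build GRCm38.p6 held 28 CpG sites in 300 bases, shown in capitals, beside a median of 15 over all windows. No methylation was measured here.
Dazl: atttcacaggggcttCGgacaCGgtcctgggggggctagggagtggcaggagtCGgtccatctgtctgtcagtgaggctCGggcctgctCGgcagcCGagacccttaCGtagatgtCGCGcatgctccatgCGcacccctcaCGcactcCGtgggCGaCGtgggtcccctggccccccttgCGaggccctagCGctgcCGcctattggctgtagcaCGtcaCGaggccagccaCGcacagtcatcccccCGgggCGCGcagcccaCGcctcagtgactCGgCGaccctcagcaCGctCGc
Of 30 windows of germline genes 14 (46.7%) held the E-box CACGTG, beside 8.38% of all windows. Among them were 3 of the 7 genes that rose (Hormad1, Stk31 and Tdrd9) and 4 of the 6 that fell (Mael, Ddx4, Mov10l1 and Tdrd1). The window of Dazl did not hold it.

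Imprinted genes, of which a single parental copy is active, fell more often than they rose. Of 40 measured, 16 fell and 5 rose (median −0.26). Peg10 was at 7.23, 6.63, 10.38 and 9.75 in EG 2is lines 1 to 4, against 11.99, 12.43, 12.20 and 11.92 in EG FCS lines. It fell by 3.88 (SE 0.74, 14.8-fold, adjusted p = 0.00059), and the male EG 2is lines 1 and 2 were lower than the female lines 3 and 4. Its neighbour Sgce was at 6.05, 5.77, 6.73 and 6.36 in EG 2is lines and 7.31 to 7.68 in EG FCS lines, with the same order of the sexes. Peg3 fell by 1.83 (SE 0.15), Mest fell by 1.3 and Igf2 fell by 0.89. Rises were seen for Plagl1, a zinc finger factor (1.73, SE 0.37), and Igf2r, the receptor that degrades IGF2 (1.12, SE 0.14), and the rises numbered 3 without EG FCS line 2 and 3 with sex terms per culture.

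The remaining lists held calls in both directions, and stand beside 12.7% rises and 12.9% falls over all genes. Of 35 interferon and antigen presentation genes 6 rose and 4 fell. Oas1a, an antiviral enzyme, rose by 2.10 (SE 0.20), and the signal transducer Stat2 by 1.53 (SE 0.16). Of 28 chaperone genes 4 rose and 6 fell, with Bag3 at 0.98 and Dnajb9, of the endoplasmic reticulum, at −1.22, and 1 rose without EG FCS line 1 or in male arrays alone. Of 24 p53 targets 5 rose and 5 fell, with Gadd45a at −2.23 (SE 0.34). Without EG 2is line 2 both counts were 3, as were the falls without EG 2is line 3 or EG FCS line 1 or 3. Of 34 Polycomb and histone methyltransferase genes 10 rose and 9 fell, with 0 at 2-fold in either direction, among them Bmi1 (0.59) and Jarid2 (−0.71). Of 22 retinoid genes 3 rose (5 in male arrays alone) and 4 fell, and of 24 channels and ion transporters 4 rose and 5 fell, led by Aqp3 and by Car4, a carbonic anhydrase that fell by 2.69 (SE 0.29); the falls numbered 3 without EG 2is line 1 or EG FCS line 1 or 2 and in male arrays alone.

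EG 2is lines varied widely among themselves at a small set of genes. Over 15708 genes above background the median SD was 0.14 among EG 2is lines and 0.124 among EG FCS lines, but 27 autosomal genes had an SD of 1 or more among EG 2is lines, against 7 among EG FCS lines. P2rx7, an ATP-gated channel, had 9.18 and 9.87 in the female EG 2is lines 3 and 4, against 6.20 and 6.99 in the male lines 1 and 2, with EG FCS lines at 5.36 to 5.63. Gja1, a gap junction protein, had 7.96 and 8.25 in the female EG 2is lines, against 5.94 and 5.73 in the male lines, all below the 10.44 to 11.01 of EG FCS lines. Slc13a5, a citrate transporter, had 8.43 and 7.95 in the female lines, against 5.71 and 5.00 in the male lines, and the male lines lay within or below the 5.50 to 6.01 of EG FCS lines. Pramel6, a gene of naive pluripotent cells, had 7.36 and 8.36 in the female lines, against 5.35 and 5.66 in the male lines. Neither was called between EG 2is and EG FCS (adjusted p = 0.491 for Slc13a5 and 0.254 for Pramel6). Meis2, a homeobox gene, had 8.59 and 8.53 in the female lines, against 6.85 and 7.15 in the male lines.

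This difference was then fitted for all genes, after the spread had been seen, as female minus male among EG 2is lines. This gave 69 called genes out of 19938 (0.346%), 36 rises and 33 falls in female relative to male lines, and 2922 genes with an unadjusted p under 0.05. Of the rises 20 were X-linked and 16 autosomal, and of the falls 30 were autosomal and 3 Y-linked. P2rx7 was higher in female lines by 2.93, H2-Eb1, a class II antigen-presenting molecule, by 2.17 (SE 0.33, adjusted p = 0.0186), Oas1a by 1.46 (SE 0.27, adjusted p = 0.0444) and the interleukin receptor gene Il6ra by 1.03 (SE 0.18). X-linked rises included Armcx1 (1.99), the RNA export factor Nxf3 (2.39) and Cited1 (1.20). Autosomal genes lower in female lines included Adgrg1, an adhesion receptor (−1.32), Nnt, which makes mitochondrial NADPH (−1.15), Marcks, a membrane-bound kinase substrate (−1.27), and Glb1 (−0.69, SE 0.13, adjusted p = 0.0485). Dazl (1.21, adjusted p = 0.117), Gja1 (2.26, adjusted p = 0.103), Meis2 (1.56, adjusted p = 0.0763) and Bhmt (1.70, adjusted p = 0.204) did not pass. With 2 lines of each sex, sex and line cannot be told apart, and since EG FCS had 1 female line, whether the difference is particular to EG 2is lines could not be judged. The median level of 739 X-linked genes minus that of autosomal genes was −0.015 and −0.033 in the female EG 2is lines, against −0.209 and −0.258 in the male lines. It was −0.168 in the female EG FCS line and −0.255 to −0.213 in the male EG FCS lines. The sizes depend on the genes and the average used: over genes above background it was 0.085 and 0.181 in the female EG 2is lines, against −0.472 and −0.448 in the male lines, and with means 0.122 and 0.16, against −0.21 and −0.202. Female EG 2i lines did not all lie above male ones, with −0.207, 0.069 and 0.052 in female EG 2i lines 1 to 3 and −0.202 in the male line 4. Xist, the RNA that silences an X chromosome, was at 4.69 to 4.80 in EG 2is lines and 4.41 to 5.00 in EG FCS lines, at or near background in every line.

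EG FCS lines in turn varied at genes where EG 2is lines were level. Fgf15, a growth factor gene, was at 5.22 to 5.43 in EG 2is lines, against 8.22, 8.25, 6.09 and 6.20 in EG FCS lines 1 to 4. Gadd45g, a stress-response gene, was at 4.45 to 4.69 in EG 2is lines, all below background, against 8.73, 8.54, 7.22 and 7.06 in EG FCS lines 1 to 4, at least 8.03-fold lower in EG 2is lines. Lef1 was at 5.89 to 6.01 in EG 2is lines, against 8.49, 8.69, 7.15 and 6.90. In these genes, as in Dnmt3a and Dnmt3b, EG FCS lines 1 and 2 lay farther from the EG 2is lines than lines 3 and 4 did, and the same held from below for Tfcp2l1, Nanog and Kit. The labels give lines 1 and 2 different sexes and different series of sample codes, and no label separates lines 1 and 2 from lines 3 and 4. Myof, a membrane repair protein, and Calcoco2, an autophagy receptor, were ordered in another way, with line 2 lowest and line 4 highest, and Myof in EG FCS line 4 (8.80) reached the EG 2is range (8.76 to 9.59).

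**Figure D4:**
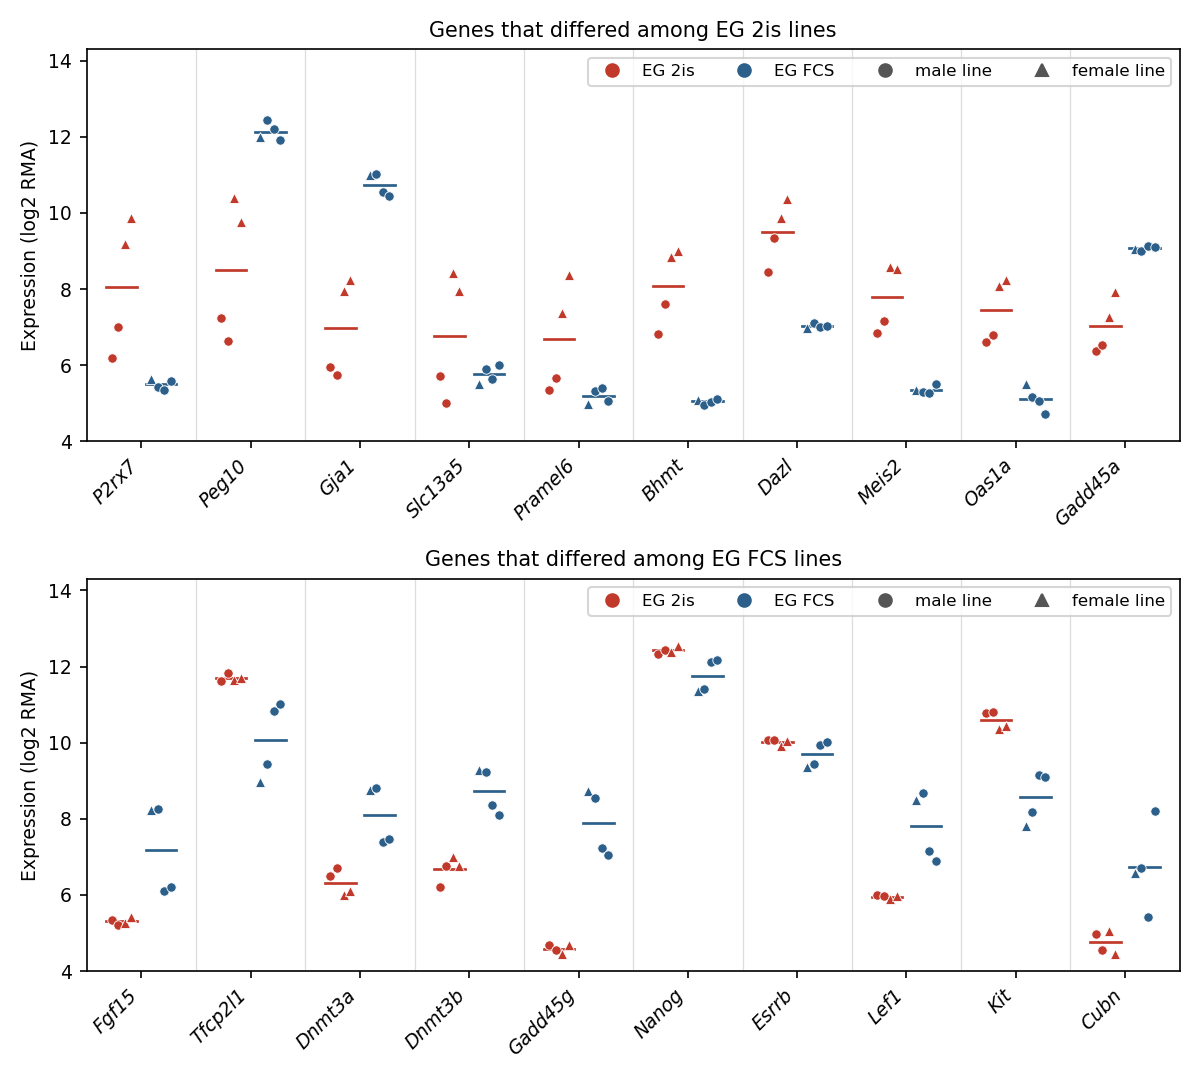
Expression in log2 RMA units (vertical axes) of 10 genes that differed among EG 2is lines (upper panel) and 10 that differed among EG FCS lines (lower panel), chosen after their values were seen. Points are single lines, EG 2is left of EG FCS, triangles are female and circles male lines, bars are means of 4 lines; the upper genes are higher in the 2 female EG 2is lines.

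EG 2is lines were also set against the 4 EG lines derived in 2i without a start in serum (lines 1 to 3 female, line 4 male), a comparison that shares its EG 2is arrays with the one above. Limma called 0 of 19938 genes (0%), with a smallest adjusted p of 0.137, and 0 with a mean-dependent and robust prior; 2116 genes (10.61%) had an unadjusted p under 0.05. Fitted differences were small, 95% of genes lying between −0.26 and 0.31, and 15 genes differed by 1 or more. Side by side, the mean level of Acta2 was 5.01 ± 0.24 in EG 2is lines and 5.04 ± 0.16 in EG 2i lines (SD, n = 4 each), that of Crxos was 8.58 ± 0.17 in EG 2is lines and 8.38 ± 0.53 in EG 2i lines, and that of Dazl was 9.50 ± 0.82 in EG 2is lines and 10.06 ± 0.51 in EG 2i lines. The fitted difference was −0.02 for Acta2 (95% interval −0.64 to 0.59), 0.09 for Crxos (−0.59 to 0.77), −0.39 for Dazl (−0.94 to 0.16) and 0.21 for Dnmt3l (−0.85 to 1.27), so differences near 2-fold lie within the last of these intervals. Aldh1l1 was higher by 1.23 and Acss1 by 1.14 in EG 2is lines (adjusted p = 0.137 for both), with means of 8.07 ± 0.41 and 8.54 ± 0.36 in EG 2is lines and 6.78 ± 0.34 and 7.41 ± 0.21 in EG 2i lines. A p above the threshold does not show that the groups are alike.

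The response of EG 2is lines was last set against that of ES lines, as EG 2is minus EG FCS less ES 2i minus ES FCS, which share no arrays. Limma called 6 of 19938 genes (0.0301%), and 1799 had an unadjusted p under 0.05. The count was 25 without EG 2is line 3 and 89 in male arrays alone. Cth, which makes cysteine from cystathionine, was at 10.24 to 10.54 in EG 2is lines and 9.93 to 10.14 in EG FCS lines, a rise of 0.46, and its EG minus ES difference in response was −1.02. Apobec1, a cytidine deaminase, and Nrm, a protein of the nuclear envelope, were not called in EG lines (0.11 and −0.01), and their differences in response were −0.97 and −0.80. Mvp, the major vault protein, and Pstpip2, a membrane-bending protein, fell in EG lines (−0.68 and −0.81), with differences in response of −0.85 and −0.71. Gbp2b, an interferon-induced GTPase, was below background in every EG 2is line and at least 1.13-fold lower there, with a difference in response of 0.84; its fall in EG lines was not called without EG FCS line 1 (adjusted p = 0.067). In ES lines the means in 2i and in FCS were 10.89 and 9.41 for Cth, 6.80 and 5.72 for Apobec1, and 9.06 and 8.27 for Nrm. They were 7.30 and 7.14 for Mvp, 5.59 and 5.69 for Pstpip2, and 4.70 and 5.91 for Gbp2b. The EG 2is mean of Gbp2b was also 4.70, so both 2i groups were below background on average. None of the 12 largest rises or falls between EG 2is and EG FCS was among the 6 called genes.

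**Figure D5:**
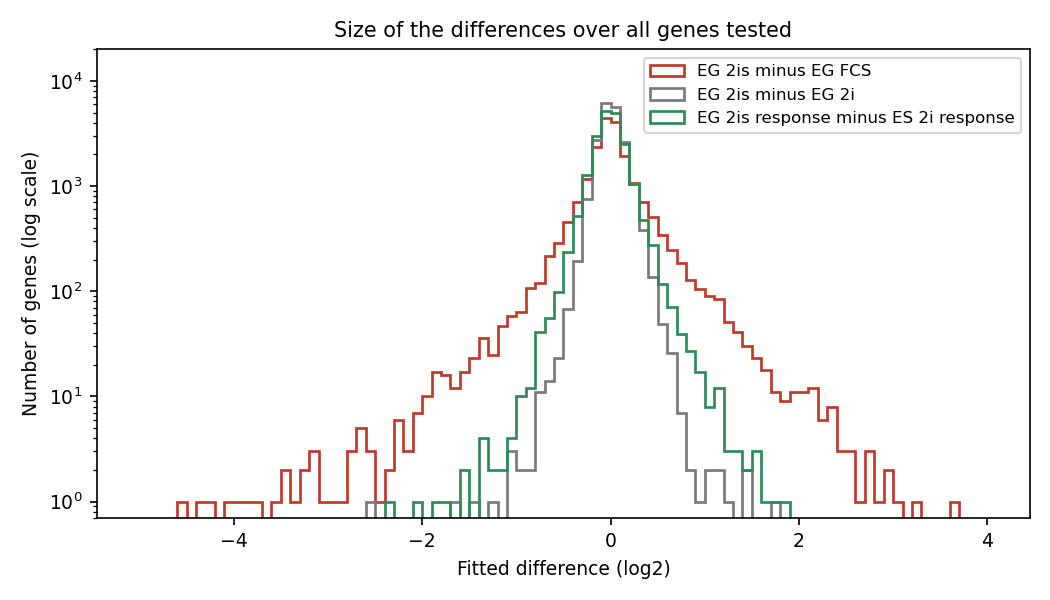
Number of genes (vertical axis, log scale) by fitted difference in log2 units (horizontal axis) for EG 2is minus EG FCS, EG 2is minus EG 2i, and the EG 2is response minus the ES 2i response. The first is the widest, from −4.52 for Acta2 to 3.65 for Crxos, and for EG 2is minus EG 2i 95% of genes lie between −0.26 and 0.31.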

How the data were processed

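RNA of 22 samples was measured on Affymetrix mouse gene arrays, 1 array per sample. The deposited values are log2 levels on the RMA scale, 1 per probe set, and per the submitters' processing notes the authors used Affymetrix Expression Console, RMA and limma; versions and any batch adjustment are not given in the sources used here. All value columns could be matched to samples (0 unmatched). Of 28853 probe sets 21789 had 1 gene symbol, 1621 several and 5443 none. Each of 19938 genes was taken from its probe set with the highest mean, under the symbol of GEO's platform annotation, of which the RefSeq table changed 0. limma 3.58.1 in R 4.3.3 fitted all arrays with group, labelled batch and labelled sex; every adjusted p is its Benjamini-Hochberg value over all genes, two-sided, and n is the number of arrays, which limits the precision. The batch holds all EG arrays together. The fit was checked on simulated data. Python 3.11.15 and matplotlib 3.10.9 drew the figures.

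The gene lists, the comparison and the genes named were chosen with earlier results of these data known. The rule names the 12 largest rises and falls whose groups overlap in no array, up to 2 called members of each list by adjusted p, the called genes of the other contrasts, the 6 largest SDs in either group, and Dnmt1, Dnmt3a, Dnmt3b, Dnmt3l, Uhrf1, Tet1, Prdm14, Pou5f1, Nanog, Sox2, Esrrb, Dazl, Dusp6, Xist and Eif2s3y; predicted genes were passed over. Other list members were chosen after their values were seen. Promoter windows came from RefSeq (GRCm38.p6), and 4324 genes tested had none. Of the promoters planned for print, those of Tm7sf2, Msmo1, Ebp, Dhcr7, Fos, Dusp6 and Fosb held none of the motifs searched for their lists and were left out in favour of windows that held one. Dusp4 had no window, and Dazl, which held none either, was printed for its CpG sites. The sterol regulatory element TCACNCCAC was in 1 of 16 cholesterol windows, beside 1.16% of all windows. Of 23 ERK windows 1 held the CArG box and 2 the cyclic AMP response element TGACGTCA, beside 1.42% and 2.49% of all windows. Alternatives tried were other sets of arrays, sex, batch and replicate terms, normalization, filters on dim genes, choice of probe set, prior and threshold.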

Additional observations from a re-analysis of the deposited data

Results flagged for a closer look

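Single lines that stood apart from the other 3 of their group were looked for in 234 groups of 4 values, 2 for each named gene, and 11 were found (4.7%), where chance alone gives about 1 in 20. In EG 2is lines, Aldh1l1 was at 7.47 in line 4 and 8.21 to 8.35 in the others, Plekhb2 at 8.73 in line 2 and 8.26 to 8.34, Ccnd2 at 6.23 in line 4 and 5.81 to 5.83, and Id1 at 5.65 in line 1 and 5.35 to 5.38. Sox11 was at 5.22 in line 3 and 5.76 to 5.80, Pfkp at 10.52 in line 1 and 10.11 to 10.17, and Wnt8a, below background, at 4.69 in line 3 and 4.60 to 4.61. In EG FCS lines it was line 1 each time: Mycn at 8.41 against 7.98 to 8.04 in the others, Zfp809 at 8.63 against 8.29 to 8.34, Actb at 13.39 against 13.31 to 13.32, and Eif2s3y at 4.79 against 8.24 to 8.79, line 1 being the female line of that group. None of these gaps reached the other group's range except that of Eif2s3y, which is Y-linked.

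The response to 2i differed between EG 2is and ES lines, by the interaction contrast in limma, for Gbp2b (0.84), Cth (−1.02), Apobec1 (−0.97), Mvp (−0.85), Nrm (−0.80) and Pstpip2 (−0.71).

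Probe sets without a single gene symbol lay outside the comparison of genes. Of 7064 such probe sets 746 were called between EG 2is and EG FCS (10.6%), 360 higher and 386 lower in EG 2is lines.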

How the results depend on the processing

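Between EG 2is and EG FCS the number of called genes was 3875 (male arrays only) to 5278 over the alternatives at the same threshold that test 1 value per gene (5479 over all probe sets with 1 symbol), and leaving out 1 EG array at a time gave 3973 to 5059 genes. Leaving out 1 array gave 2055 to 2491 rises, 1918 to 2568 falls and 654 to 783 genes at 2-fold. At an adjusted p under 0.01 there were 3413 called genes and 1647 falls. The labels share replicate numbers, but same-numbered arrays of the 2 groups did not deviate together (correlations −0.092, 0.045, −0.125 and 0.002), and with the replicate number as a block over 8 arrays the count was 5278. EG 2is against EG 2i gave 0 in every alternative run. For the EG 2is response minus the ES response the 6 genes became 89 in male arrays only and 4 to 25 when 1 EG array was left out (25 without EG 2is line 3); the cause was not tested. Of 107 named genes called, 103 stayed called in all alternatives fitted for them; Nanog, Esrrb, Sdhb and Gbp2b did not, and 0 changed direction. Esrrb, at an adjusted p of 0.0321, was lost in 9 alternatives. Of the 10 not called, Pramel6 and Eif2s3y passed with the replicate block. List counts moved by over 1.5 times in several alternatives, most often in male arrays alone, where the feeder markers that fell numbered 9 of 27 in place of 14; the other such counts in male arrays stand with their lists. Signal over background limits the size of a fall: 182 called genes had an EG 2is mean, and 113 an EG FCS mean, below 4.88.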
